A study of Mus musculus with 32 samples.

Results

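The genes described here were 30 genes of cholesterol and fatty acid synthesis: 15 enzymes that build cholesterol, 4 regulators and carriers of the pathway, and 11 enzymes that make, lengthen or desaturate fatty acids. Their probes were found by name, as those whose gene name on the array was one of the 30. The array held 46 probes for them among 55681 mouse probes, and 45 of the 46 were bright enough to test. Each gene is given on its brightest tested probe, and all 30 of these probes were well above background on all 32 arrays. In 12 genes more than 1 probe was tested, and other probes that differed in call are given for scrambled mice and, in part, for antimiR-34a mice.

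Cholesterol is built from acetyl-CoA through mevalonate, isoprenoids and squalene, and the same acetyl-CoA feeds the synthesis of palmitate and longer fatty acids. SREBP2, encoded by Srebf2, drives the sterol enzymes when membranes are low in cholesterol, SREBP1, encoded by Srebf1, favours the fatty acid enzymes, and INSIG1 holds both back in the endoplasmic reticulum. In the lung these routes supply the lipid of new membranes and of surfactant, which type II pneumocytes make and which lowers surface tension in the alveoli.

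RNA had been measured in whole lungs of newborn C57Bl/6J mice of both sexes on 1-colour arrays, with 1 mouse per array. From postnatal day 1 the pups breathed 21% O2 (normoxia) or 85% O2 (hyperoxia, which arrests the formation of alveoli), and all of them, controls included, also received a locked nucleic acid antimiR, directed against miR-34a (antimiR-34a) or with a scrambled sequence (scrambled antimiR). Lungs were taken at postnatal day 5 (P5) or 14 (P14), which gave 8 groups of 4 mice. The antimiR was injected into the peritoneum on postnatal days 1 and 3, so it was not limited to a cell type of the lung. The 32 arrays lay on 4 slides of 8, and each slide held 1 age and 1 oxygen level, so neither oxygen nor age can be told apart from the slide. On every slide the scrambled antimiR lungs lay in array row 1 and the antimiR-34a lungs in array row 2, so the antimiR cannot be told apart from the row. The lungs were perfused until white, and whole tissue was measured, so fewer cells of a type and less RNA per cell cannot be told apart.

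Between 33616 and 40788 probes per array were well above background and no mouse spot was saturated. The 8 genes fixed as a check of lung tissue, Sftpc among them, were all measured, and Sftpc was bright in every lung. Some lungs had high levels of genes typical of other tissues, and whether neighbouring tissue was carried over was not tested. At P5, replicate 4 of the 21% O2 scrambled group had skeletal muscle genes at a mean log2 level of 1.66, against -3.22 to -2.33 in the other 3 lungs, and replicate 3 of the 85% O2 antimiR-34a group had hepatocyte genes at 2.77. The adipocyte genes differed between whole groups at P14. They lay between -1.20 and 2.16 in the scrambled lungs in 21% O2 and between -5.26 and -4.99 in those in 85% O2. Some of the calls that were lost without arrays high in such genes are named with their contrasts.

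The promoters of the sterol enzymes are known for a sterol regulatory element, which SREBP binds, and for a CCAAT box, which NF-Y binds beside it. RefSeq windows on GRCm38.p6, from 250 bases before to 50 bases after the start, were at hand for 23 of the 30 genes. The letters CCAAT were found on either strand in 19 of the 23 windows (82.6%), against 41.1% of 27025 genes. A classical sterol regulatory element, TCACNCCAC, was found in 1 of the 23 (4.3%), against 1.4% of all genes, and an antioxidant response core, TGACNNNGC, in 4 of the 23 (17.4%), against 14% of all genes. A match describes the letters in the window and does not show that a factor binds there. Stretches of 30 bases are shown for 5 of the genes whose levels are described next, to let the shared letters be seen near the start sites, with the matched letters in capitals. The reverse reading of the CCAAT box is ATTGG.
Hmgcs1, sterol regulatory element, chr13:119690204-119690233, plus strand: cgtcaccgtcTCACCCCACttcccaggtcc
Hmgcs1, CCAAT box, chr13:119690294-119690323, plus strand: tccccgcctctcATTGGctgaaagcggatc
Mvd, CCAAT box, chr8:122443432-122443461, minus strand: ccggccagcgggCCAATcatatggcagcgc
Lss, CCAAT box, chr10:76531531-76531560, plus strand: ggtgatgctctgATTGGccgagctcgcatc
Dhcr7, CCAAT box, chr7:143830117-143830146, plus strand: tcactgccttcaCCAATcacaggacgcagc
Insig1, CCAAT box, chr5:28071184-28071213, plus strand: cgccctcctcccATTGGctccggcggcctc

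At P14, hyperoxia was accompanied by higher RNA of many enzymes on the route to cholesterol. In scrambled antimiR mice 17 of the 30 genes were higher in 85% than in 21% O2 and 3 were lower (limma, adjusted p under 0.05), where 32.0% of all genes tested were called higher and 31.1% lower. The median difference of the 30 genes was 0.24 on the log2 scale, against -0.01 over all genes, and it was 0.14 under quantile normalization and 0.13 on the authors' values. Among the 15 sterol enzymes 9 were higher and 1 lower, and among the 11 fatty acid genes 5 were higher and 1 lower. Quantile normalization gave 13 genes higher and 5 lower, as did the authors' own normalized values, so the split between higher and lower depended in part on the scaling.

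All levels are log2 signals with each array's 75th percentile set to 0, and all differences are 85% minus 21% O2 on the log2 scale with their standard error. Mvd encodes the decarboxylase that makes isopentenyl diphosphate from mevalonate diphosphate, and its probe lay at chr8:124957750-124957809 (mm9). Its level in the 4 scrambled lungs in 21% O2 at P14 was -0.89, -0.77, -0.65 and -0.95, and in the 4 lungs in 85% O2 it was 0.01, 0.01, 0.01 and -0.08. No lung of one group reached the other, and the difference was 0.80 ± 0.09, or 1.74-fold (adjusted p = 6.63e-06, limma). Hmgcs1 encodes the cytosolic synthase that condenses acetyl-CoA with acetoacetyl-CoA. It was at 3.36, 3.42, 3.34 and 3.45 in 21% O2 and at 3.95, 3.92, 4.03 and 3.91 in 85% O2. These groups also lay apart, with a difference of 0.56 ± 0.07 (adjusted p = 1.16e-05, limma).

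Further along the route to squalene, Fdft1, the squalene synthase that commits farnesyl diphosphate to sterols, was at -0.03, 0.19, 0.01 and -0.11 in 21% O2 and at 0.87, 0.81, 0.68 and 0.28 in 85% O2. The lowest hyperoxic lung, replicate 4, still exceeded every normoxic one, and the difference was 0.64 ± 0.12 (adjusted p = 0.000293, limma). Pmvk, the phosphomevalonate kinase, was at 2.86, 2.92, 3.01 and 2.91 in 21% O2 and at 3.78, 3.79, 4.19 and 3.63 in 85% O2, a difference of 0.92 ± 0.31 (adjusted p = 0.0191, limma). The groups were apart, but the call was lost without replicate 3 in 85% O2 (0.81, adjusted p = 0.0555) and without 3 room air arrays that stood apart (0.88, adjusted p = 0.103). Its second probe gave 0.68 (adjusted p = 0.0787). Idi1, the isomerase of isopentenyl diphosphate, rose by 0.26 ± 0.10 (adjusted p = 0.0309), a call lost when any of 4 of the 8 lungs was left out. Not called were Acat2, a cytosolic thiolase, at -0.01, Mvk, the mevalonate kinase, at 0.08 (its other probe was called at 0.22, adjusted p = 0.0395), and Fdps, the farnesyl diphosphate synthase, at -0.27 (adjusted p = 0.113). Replicate 4 in 85% O2 was low for Fdps, at 1.74 against 2.37 to 2.58 in the other 3 lungs.

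From squalene to cholesterol, Sqle, the squalene epoxidase and a rate-limiting step, was at 1.60, 1.71, 1.82 and 1.80 in 21% O2 and at 2.21, 2.45, 2.58 and 2.35 in 85% O2. Every hyperoxic lung lay above every normoxic lung, and the difference was 0.67 ± 0.09, or 1.59-fold (adjusted p = 2.96e-05, limma). Lss, the cyclase that makes lanosterol, was at -2.15, -2.19, -2.08 and -2.32 in 21% O2 and at -1.56, -1.50, -1.73 and -2.03 in 85% O2, a difference of 0.48 ± 0.11 (adjusted p = 0.00177). Dhcr7, which catalyses the last reduction to cholesterol, was at -1.30, -1.58, -1.56 and -1.76 in 21% O2 and at -0.78, -1.18, -1.11 and -1.27 in 85% O2, a difference of 0.46 ± 0.12 (adjusted p = 0.00381). In both genes the groups did not overlap, though the nearest lungs of Dhcr7, at -1.30 and -1.27, almost met. Ebp, the sterol isomerase, rose by 0.19 (adjusted p = 0.0226) and was the single called gene whose groups overlapped, with the call lost for any of 4 of the 8 lungs left out. Cyp51, the lanosterol demethylase, differed by 0.20 (adjusted p = 0.169) and Tm7sf2, a sterol reductase, by 0.02, and neither was called.

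One sterol enzyme went the other way on its brightest probe. Nsdhl, a decarboxylating dehydrogenase of C4-demethylation, was at -1.33, -1.09, -1.20 and -1.25 in 21% O2 and at -1.63, -1.65, -1.97 and -2.17 in 85% O2, a fall of -0.63 ± 0.11 (adjusted p = 0.000216, limma). The other Nsdhl probe did not follow it, with 0.19 in scrambled mice (adjusted p = 0.199) and 0.31 in antimiR-34a mice (adjusted p = 0.0383), so the direction of Nsdhl depended on the probe.

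**Figure D1:**
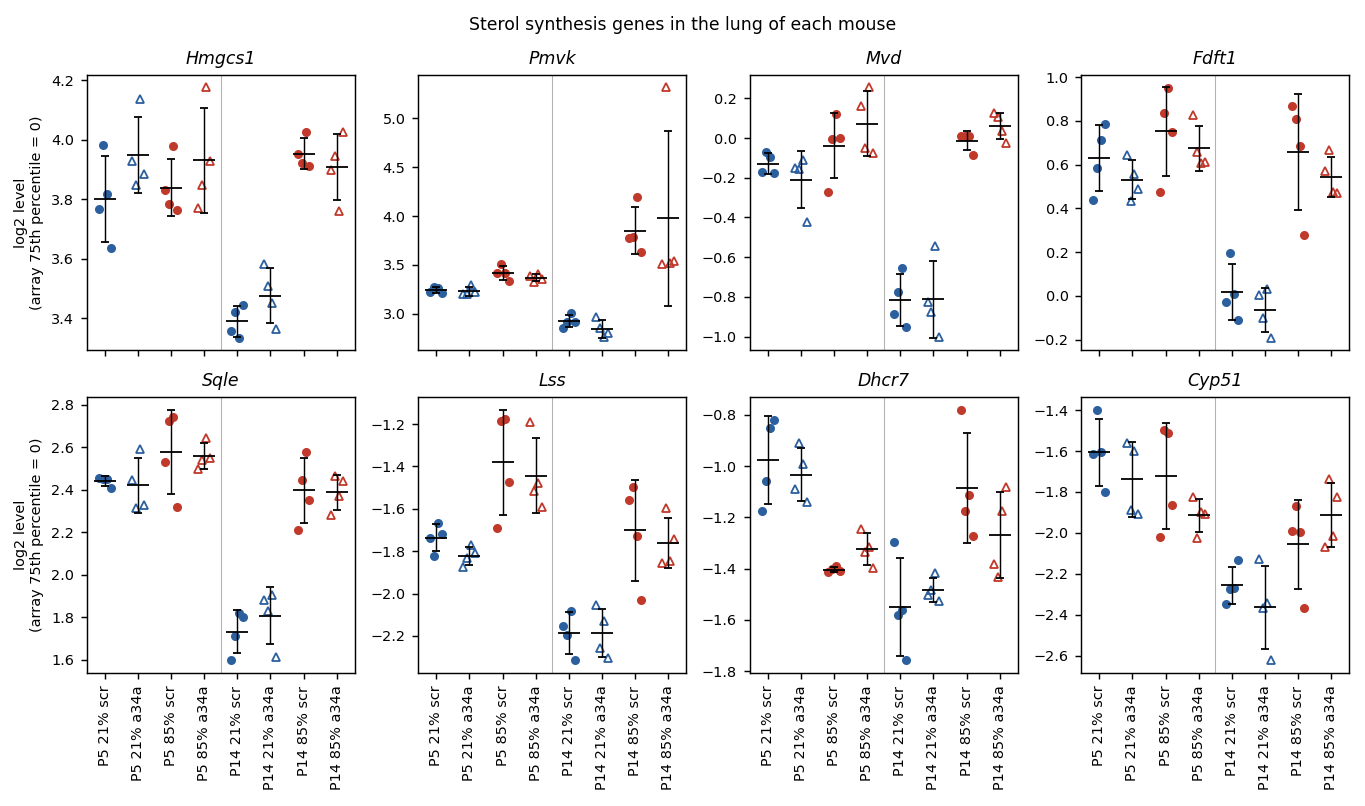
Log2 level relative to the array's 75th percentile (vertical axis) of sterol enzymes in every lung, by group (horizontal axis). Circles are scrambled antimiR mice and triangles antimiR-34a mice, blue in 21% and red in 85% O2, with the mean and SD of 4 mice as bars. At P14 in scrambled antimiR mice the 4 lungs in 85% O2 lay above the 4 in 21% O2 for Mvd, Hmgcs1, Fdft1 and Sqle.

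The regulators moved at P14 as well. Srebf1 was at -1.44, -1.46, -1.48 and -1.30 in 21% O2 and at -0.89, -0.82, -0.78 and -0.79 in 85% O2, a difference of 0.60 ± 0.06 (adjusted p = 3.14e-06, limma). Insig1, itself a target of SREBP, was at -2.03, -2.20, -1.83 and -2.22 in 21% O2 and at -1.62, -1.51, -1.33 and -1.46 in 85% O2, a difference of 0.59 ± 0.13 (adjusted p = 0.00123). The groups lay apart for both genes. Srebf2 was at -0.70, -0.79, -0.71 and -0.71 in 21% O2 and at -0.23, -0.34, -0.12 and -0.39 in 85% O2 on its brightest probe, a difference of 0.46 ± 0.09 (adjusted p = 0.00079). Its other probe was lower in 85% O2, by -0.49 ± 0.18 (adjusted p = 0.0281), and the mean of its probes gave -0.02, so no direction can be given for the gene as a whole.

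Stard4, a sterol carrier between membranes that is also known as a target of SREBP2, was lower in 85% O2. Its level was 1.66, 2.00, 1.79 and 1.76 in 21% O2 and 0.90, 0.86, 0.93 and 0.86 in 85% O2. The hyperoxic lungs lay close together and below all normoxic lungs, and the difference was -0.92 ± 0.09, a 1.89-fold fall (adjusted p = 1.94e-06, limma).

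Among the fatty acid genes the change centred on malic enzyme. Me1 encodes the cytosolic enzyme that turns malate into pyruvate and yields NADPH, the reductant of fatty acid and sterol synthesis, and its probe lay at chr9:86475077-86475136 (mm9). Its level in scrambled lungs at P14 was 2.79, 2.89, 2.92 and 2.75 in 21% O2 and 4.26, 4.23, 4.26 and 4.21 in 85% O2. The difference of 1.40 ± 0.08, or 2.65-fold, exceeded that of the other 29 genes (adjusted p = 1.34e-08, limma). Acaca, the acetyl-CoA carboxylase that starts fatty acid synthesis, rose by 0.28 ± 0.07 (adjusted p = 0.00341). Of its 3 other tested probes, those at 0.30 (adjusted p = 0.00327) and 0.70 (adjusted p = 0.000426) were called higher as well, and the dimmest, at 0.50 ± 0.54, was not. Fasn, the fatty acid synthase, was not called at -0.03 ± 0.12, with replicate 4 in 85% O2 at -0.77 and the other 3 at -0.04, -0.26 and -0.16. Acly, which splits citrate into acetyl-CoA, was at 4.13, 4.23, 4.28 and 4.33 in 21% O2 and at 3.97, 3.99, 3.90 and 4.00 in 85% O2 on its brightest probe, a fall of -0.28 ± 0.06 (adjusted p = 0.00106). On its other probe it rose by 0.83 ± 0.15 (adjusted p = 0.00027), so Acly has no single direction here either.

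Of the 7 elongases and desaturases, 3 were called, all higher and all by little, where 32.0% of all genes were called higher. Elovl1, which lengthens saturated very long chains, rose by 0.30 (adjusted p = 0.0386), Elovl6, which takes palmitate to stearate, by 0.29 (adjusted p = 0.0199), and Scd2, a stearoyl-CoA desaturase of the neonate, by 0.23 (adjusted p = 0.0305). The other Elovl1 probe gave 0.19 (adjusted p = 0.299). The Elovl1 call was lost when any of 7 of the 8 lungs was left out, the Scd2 call for 4 of the 8 and the Elovl6 call for 1. Quantile normalization reduced them to 0.08 for Elovl1 and 0.04 for Scd2, and it also ended the calls of Idi1 (0.19) and Ebp (0.00). Scd1, Elovl5, Fads1 and Fads2 were not called, with differences between -0.11 and 0.04.

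**Figure D2:**
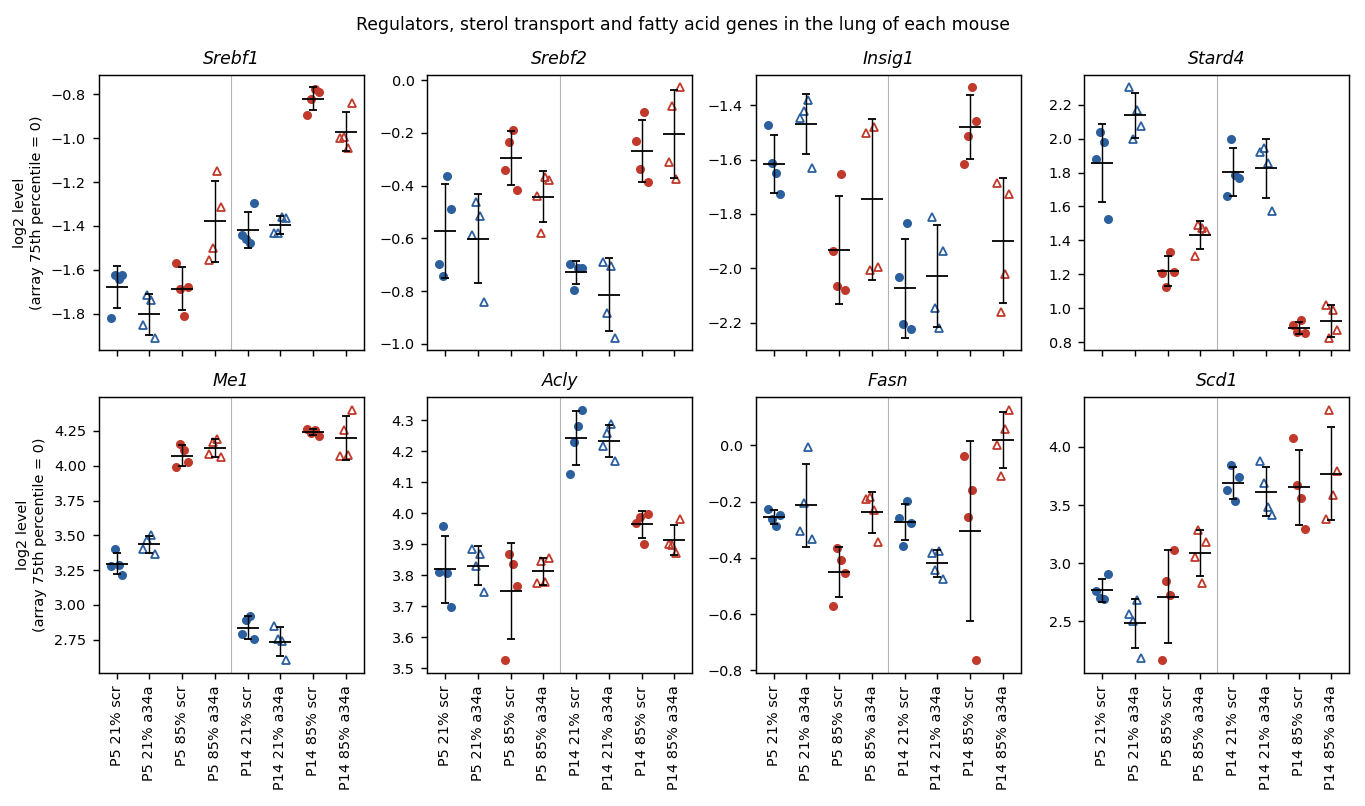
Log2 level relative to the array's 75th percentile (vertical axis) of regulators, the carrier Stard4 and fatty acid genes in every lung, by group (horizontal axis). Circles are scrambled antimiR mice and triangles antimiR-34a mice, blue in 21% and red in 85% O2, with the mean and SD of 4 mice as bars. Me1 was at 2.75 to 2.92 in 21% O2 and at 4.21 to 4.26 in 85% O2 in scrambled mice at P14, while Stard4 was at 1.66 to 2.00 and at 0.86 to 0.93.

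The mice given antimiR-34a offered the same contrast in other animals on the same slides. There 16 of the 30 genes were higher and 3 lower in 85% O2 at P14, against 34.3% and 31.6% of all genes. Of the genes called higher, 14 were called in both arms, which was 82.4% of the 17 in scrambled and 87.5% of the 16 in antimiR-34a mice (over all genes 88.1% and 82%), and Stard4, Nsdhl and Acly made up the lower calls of both on their brightest probes. As in scrambled mice, the other Acly probe was higher in 85% O2 (0.64, adjusted p = 0.00157) and the other Srebf2 probe lower (-0.54, adjusted p = 0.0165). Me1 again differed by 1.46 ± 0.08 (adjusted p = 9.05e-09, limma), with 2.85, 2.76, 2.74 and 2.60 in 21% O2 and 4.07, 4.26, 4.07 and 4.40 in 85% O2. Mvd differed by 0.87 ± 0.09 (adjusted p = 2.86e-06), Fdft1 by 0.61, Sqle by 0.58 and Hmgcs1 by 0.43, all called. Cyp51 at 0.45 (adjusted p = 0.005) and Fasn at 0.44 (adjusted p = 0.00572) were called here and not in scrambled mice, while Insig1 (0.13), Dhcr7 (0.21) and Idi1 (0.21) were called only there. These calls do not show a difference between the arms, which is tested further on. Pmvk was at 3.51, 5.32, 3.52 and 3.54 in 85% O2, so replicate 2 raised its mean. Its difference of 1.13 ± 0.31 (adjusted p = 0.00548) became 0.68 without that lung (adjusted p = 0.000139). In this contrast 9 of 9 adipocyte genes (median -6.13), 6 of 10 type II pneumocyte genes, 5 of 8 lipofibroblast genes and 4 of 8 lung macrophage genes were lower, and 0, 2, 1 and 4 were higher. The mean adipocyte level was -1.01 to 2.88 in 21% O2 and -5.37 to -1.97 in 85% O2. The mean lung macrophage level was 1.84 to 2.20 in 21% O2 and 0.59 to 1.05 in 85% O2. Without 9 arrays of the series, chosen after the data were seen because they carried marks of other tissues, stood apart in brightness or held the high Pmvk value, 10 of the 30 genes were higher and 3 lower, and Cyp51, Ebp, Elovl1, Fasn, Lss and Scd2 were not called.

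At P5 the same genes did not move together. In scrambled mice 8 genes were higher and 8 lower in 85% O2, against 21.5% and 24.8% of all genes, with a median difference of -0.02 against -0.03. Of the 15 sterol enzymes 4 were higher and 3 lower, and of the 11 fatty acid genes 3 were higher and 4 lower. Among the cell type markers, 9 of 9 proliferation genes (median -1.08) and 4 of 8 skeletal muscle genes (median -1.90) were lower and 0 higher. Of 8 lung macrophage genes 4 were higher and 3 lower, and of 8 lipofibroblast genes 4 were higher and 2 lower. The part of these markers was not tested. Me1 was already higher: its level was 3.28, 3.40, 3.29 and 3.22 in 21% O2 and 3.99, 4.16, 4.12 and 4.03 in 85% O2, a difference of 0.78 ± 0.06 (adjusted p = 3.22e-07, limma). Stard4 was already lower, at 1.88, 2.04, 1.98 and 1.53 against 1.21, 1.12, 1.33 and 1.21, a difference of -0.64 ± 0.10 (adjusted p = 0.000208). Elovl1 rose by 0.48, Ebp by 0.47, Lss by 0.36 and Pmvk by 0.18. Of the 9 sterol enzymes higher at P14, Ebp, Lss and Pmvk were thus higher at P5 too and Dhcr7 was lower, with the Lss call lost without replicate 2 or 3 in 85% O2, while Hmgcs1 (0.04), Idi1 (0.06), Mvd (0.09), Fdft1 (0.12) and Sqle (0.14) were not called.

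The genes lower at P5 came from both routes. Dhcr7 was at -1.18, -1.06, -0.85 and -0.82 in 21% O2 and between -1.41 and -1.39 in all 4 lungs in 85% O2, a fall of -0.43 ± 0.08 (adjusted p = 0.000603, limma). Acat2 fell by -0.57 (adjusted p = 0.00348), Elovl6 by -0.38 and Fads1, the delta-5 desaturase of long polyunsaturated chains, by -0.37. Fads2, the delta-6 desaturase, fell by -0.59 ± 0.17 (adjusted p = 0.0121), but its hyperoxic lungs ranged from -2.23 to -1.36, into the normoxic range, and its other probe gave 0.15. Mvk fell by -0.21 and Fasn by -0.20. Leaving out 1 lung at a time ended the Fasn call in 7 of 8 fits, that of Tm7sf2 in 6, those of Scd2 and Srebf2 in 4 each and that of Mvk in 2. Without replicate 4 in 21% O2, which had high skeletal muscle markers, Scd2 (0.14, adjusted p = 0.115), Tm7sf2 (0.22, adjusted p = 0.0547) and Fasn (-0.19, adjusted p = 0.0745) were not called. The dimmest Acaca probe was called higher at P5 (0.76, adjusted p = 0.0271), where its brightest was not (0.17). The methods' t-test, which takes its spread from 8 lungs alone, called 8 of the 30 genes in place of 16.

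In antimiR-34a mice at P5, 10 genes were higher and 4 lower in 85% O2, against 21.6% and 26.0% of all genes. Among the cell type markers all 9 proliferation genes were lower (median -0.97). Of 8 lipofibroblast genes 5 were higher and 2 lower, and of 8 lung macrophage genes 4 were higher and 1 lower. The part of these markers was not tested. Both arms called Me1, Elovl1, Ebp, Lss, Pmvk and Scd2 higher, 75% of the scrambled and 60% of the antimiR-34a calls (over all genes 73.4% and 73%). Stard4, Elovl6, Fads1 and Dhcr7 were lower in both, 50% and 100% of the calls (over all genes 74.6% and 71.1%). Scd1, the main stearoyl-CoA desaturase, at 0.61 ± 0.17 (adjusted p = 0.00873), Srebf1 at 0.42, Mvd at 0.28 and Acaca at 0.18 were called higher in antimiR-34a mice and not in scrambled mice. Without replicate 3 in 85% O2, which had high hepatocyte markers, Mvd (0.22, adjusted p = 0.081), Acaca (0.15, adjusted p = 0.094) and Pmvk (0.13, adjusted p = 0.0631) were not called. The Acaca and Pmvk calls were each lost in 6 of the 8 fits that left out 1 lung, and that of Mvd in 3. Other probes gave -0.02, 0.07 and, called, 0.19 for Acaca, 0.10 for Pmvk, not called, and 0.30 for Tm7sf2, called (adjusted p = 0.0281) where its brightest was not.

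**Figure D3:**
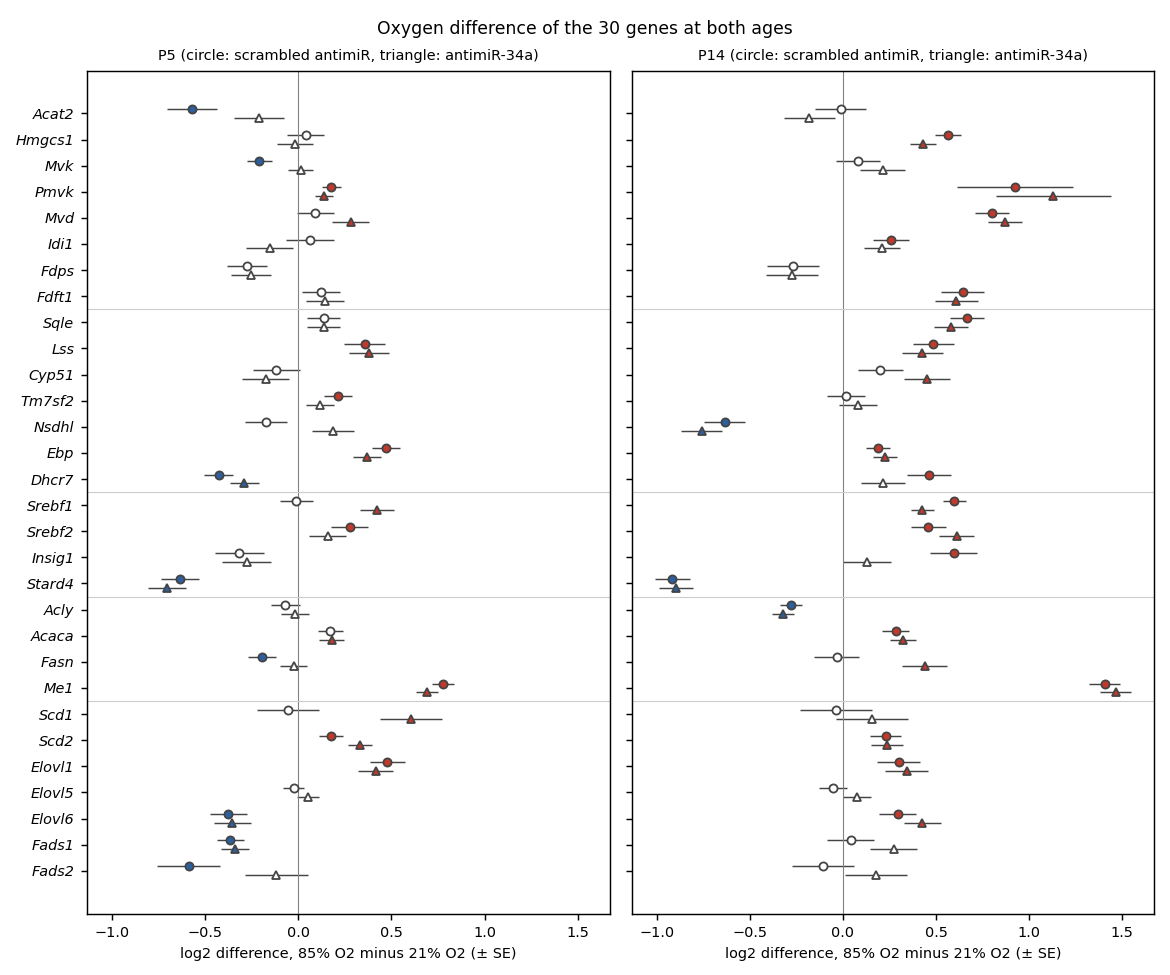
Log2 difference between 85% and 21% O2 (horizontal axis) of each of the 30 genes (vertical axis), at P5 and P14 and in scrambled antimiR and antimiR-34a mice, 4 mice per group. Points are limma estimates with their standard errors, filled red where called higher, blue where called lower and open where not called. Me1 stands highest and Stard4 lowest in all 4 contrasts, and Mvd, Sqle and Hmgcs1 lie between 0.43 and 0.87 at P14.

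The oxygen difference at P14 was set against that at P5 in 1 model over all 32 arrays. In scrambled mice the signed difference, 85% minus 21% O2, was shifted upwards at P14 for 11 of the 30 genes and downwards for 2, where 24.3% and 19.0% of all genes were called, and the median of the 30 was 0.24 against 0.04 over all genes. Age, slide and scan day changed together here and cannot be told apart. Markers of other cell types changed as well, and their part was not tested. Shifted downwards were 8 of 9 adipocyte genes (median -3.75), 6 of 10 type II pneumocyte, 4 of 8 lung macrophage and 4 of 8 lipofibroblast genes. In these lists 0, 2, 1 and 0 were shifted upwards. Of 9 proliferation genes 4 were shifted upwards and 0 downwards. Adipoq, Cfd and Ucp1 of the adipocyte list were bright enough to test only through P14 groups, here and in the other contrasts between ages. For Insig1 the change between ages was 0.91 ± 0.19 (adjusted p = 0.000405, limma), as the oxygen difference went from -0.32 at P5, not called, to 0.59 at P14. Dhcr7 turned from -0.43 to 0.46, both called, a change of 0.89 ± 0.14 (adjusted p = 2.49e-05). Elovl6 turned likewise, from -0.38 to 0.29, with both called and a change of 0.67 ± 0.14 (adjusted p = 0.00054). Mvd (0.71), Me1 (0.63), Srebf1 (0.61), Sqle (0.53), Hmgcs1 (0.52) and Fdft1 (0.52) were also shifted upwards. Acat2 (0.56) and Fads1 (0.41) were lower in 85% O2 at P5 and not called at P14. Ebp (-0.28) rose less at P14, and Nsdhl (-0.46) went from -0.17, not called, to -0.63, while its other probe shifted by 0.24 (adjusted p = 0.251). The Fads1 call was lost in 6 of 16 fits that left out 1 lung, that of Acat2 in 3 and that of Nsdhl in 1. Fads1 and Fdft1 were not called without the arrays that stood apart. Other probes were called for Mvk (0.40), Acaca (0.57), Acly (0.81), Srebf2 (-1.01) and Tm7sf2 (-0.35), whose brightest probes were not.

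In antimiR-34a mice the signed difference was shifted upwards at P14 for 12 genes and downwards for 2, against 26.3% and 18.3% of all genes. Shifted downwards here were all 9 adipocyte genes tested (median -4.12), 5 of 8 lung macrophage and 4 of 8 lipofibroblast genes. So were 4 of 5 hepatocyte and 3 of 10 type II pneumocyte genes. Shifted upwards were 1 lung macrophage, 1 type II pneumocyte and 3 of 9 proliferation genes. Mvd, Me1, Elovl6, Sqle, Hmgcs1, Fdft1, Dhcr7 and Fads1 were shifted upwards in both arms, which was 72.7% of the scrambled and 66.7% of the antimiR-34a calls (over all genes 76.2% and 70.5%). Values in antimiR-34a mice were 0.77 ± 0.10 for Me1 (adjusted p = 1.21e-06, limma), 0.59 for Mvd and 0.50 for Dhcr7. Without the same 9 arrays, 9 genes were called in place of 14, with Cyp51, Dhcr7, Fasn, Fdft1, Sqle and Srebf2 losing their calls.

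Between P5 and P14 in room air most sterol enzymes fell. In scrambled mice 14 of the 30 genes were lower and 6 higher at P14, against 25.4% and 27.9% of all genes, with a median of -0.25 against 0.02. Of the 15 sterol enzymes 10 fell and 1, Ebp, rose, while of the 11 fatty acid genes 3 fell and 4 rose. Sqle went from 2.46, 2.45, 2.45 and 2.41 at P5 to 1.60, 1.71, 1.82 and 1.80 at P14, a difference of -0.71 ± 0.09 (adjusted p = 3.46e-07, limma), and Mvd, with -0.17, -0.07, -0.10 and -0.18 at P5, differed by -0.69 ± 0.10 (adjusted p = 1.58e-06). Neither gene overlapped between the ages. Elovl6 differed by -0.85 ± 0.10, Cyp51 by -0.65, Fdft1 by -0.61 and Me1 by -0.46. Scd1 rose by 0.92 ± 0.19 (adjusted p = 0.000206), with 2.69 to 2.91 at P5 and 3.53 to 3.84 at P14, followed by Elovl1 (0.57), Acly (0.42), Scd2 (0.41), Ebp (0.38) and Srebf1 (0.26). With age all 9 adipocyte genes tested (median 2.80) and 5 of 8 lung macrophage genes were higher too and 0 lower, against 27.9% of all genes higher, and all 9 proliferation genes were lower, against 25.4%. Their part in the age differences was not tested. Acly depended on the probe here too (-0.38 on the other, adjusted p = 0.0486), and other probes were called for Srebf2 (1.21), Acaca (-0.94), Fads2 (0.40), Nsdhl (-0.28) and Mvk (-0.20), whose brightest were not. Fdps and Srebf1 were not called without the arrays that stood apart.

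The antimiR-34a mice showed 14 genes lower and 7 higher with age, against 30.6% and 27.9% of all genes, and 13 of the 14 lower genes were those of the scrambled mice (92.9% of each, over all genes 86.4% and 71.7%). All 9 adipocyte genes tested (median 4.79) and 5 of 8 lung macrophage genes were higher with age here too, and 0 lower. All 9 proliferation genes were lower (median -1.75). Sqle differed by -0.61 ± 0.09 (adjusted p = 2.06e-06, limma), Mvd by -0.60 and Me1 by -0.70. Because the age and oxygen contrasts of 1 arm share their P14 room air lungs, the genes that fell with age in scrambled mice were looked up in the oxygen contrast of the antimiR-34a mice. Of the 14 genes that fell, 8 were higher in 85% O2 at P14 (57.1%), where 54.1% of all genes that fell with age were. Of the 6 that rose with age 4 were higher in 85% O2 (66.7%), against 18.6% of all genes that rose, and these were Ebp, Elovl1, Scd2 and Srebf1. With the arms exchanged the shares were 71.4% against 53.9% and 57.1% against 12.2%. The same 4 genes made up the latter share. Leaving out 1 scrambled lung ended the oxygen calls of Ebp, Elovl1 and Scd2 in 4, 7 and 4 of 8 fits. The slides were common to these contrasts.

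In the fit of each age with its 16 arrays, none of the 30 genes was called between antimiR-34a and scrambled mice. In 21% O2 at P5, where 0.128% of all genes were called in either direction, the differences (antimiR-34a minus scrambled) lay between -0.47 and 0.28, and 28 of the 30 intervals (95%, limma, not adjusted for the number of genes) lay within ±0.5 on the log2 scale. An unadjusted p under 0.05 was found for 3 genes, Nsdhl, Stard4 and Me1. The lowest adjusted p was 0.0928 (limma), for Nsdhl, at -1.50, -1.39, -1.40 and -1.29 with scrambled antimiR and -1.74, -1.77, -2.00 and -1.96 with antimiR-34a. These groups did not overlap, and the interval of the difference ran from -0.71 to -0.23. Nsdhl was called under array weights (-0.46, adjusted p = 0.0282) and in a fit of the compared groups alone (adjusted p = 0.0484). In 85% O2 at P5, with 0.0893% of all genes called, differences ran from -0.23 to 0.45 and 27 intervals lay within ±0.5. Unadjusted p fell under 0.05 for 8 genes, with Fads2 at 0.45 (interval 0.09 to 0.82) and Srebf1 at 0.31, and the lowest adjusted p was 0.195 (limma).

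At P14 in 21% O2 no gene of the array was called (0.0% of 18730 by limma, with 4034 probes at an unadjusted p under 0.05), and the 30 genes differed by -0.17 to 0.09, with none at an unadjusted p under 0.05. At P14 in 85% O2, 2.67% of all genes were called, none of them among the 30. Insig1 came nearest, at -1.62, -1.51, -1.33 and -1.46 with scrambled antimiR and -1.69, -2.16, -2.02 and -1.73 with antimiR-34a. The highest antimiR-34a lung lay just below the lowest scrambled lung, and the difference of -0.42 had an interval of -0.69 to -0.14 (adjusted p = 0.107, limma). Fasn, at 0.32, and Srebf1, at -0.15, also had an unadjusted p under 0.05. For Pmvk the interval extended 0.67 to either side, since 1 lung stood so far from the rest. The methods' t-test called 0 of the 30 genes in these 4 contrasts after adjustment, with 3, 4, 2 and 2 at an unadjusted p under 0.05.

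Whether the oxygen difference itself changed with the antimiR was tested as an interaction. At P5, where 0.0669% of all genes were called, 0 of the 30 were called, 4 had an unadjusted p under 0.05 (Scd1, Srebf1, Nsdhl and Mvk), and the lowest adjusted p was 0.261 (limma). Scd1, called higher in 85% O2 only with antimiR-34a, differed between the arms by 0.66 ± 0.24 (adjusted p = 0.353, limma). At P14, where 0.0747% of all genes were called, 0 of the 30 were called and Fasn (0.47) and Insig1 (-0.46) had an unadjusted p under 0.05, with a lowest adjusted p of 0.246 (limma). Under array weights Fasn (0.43, adjusted p = 0.0389) and Srebf1 (-0.23, adjusted p = 0.0443) were called there. Intervals lay within ±0.5 for 24 genes at P5 and 21 at P14, and the others reached past 0.5 on at least 1 side, as for Scd1 at P5 (0.15 to 1.17).

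**Figure D4:**
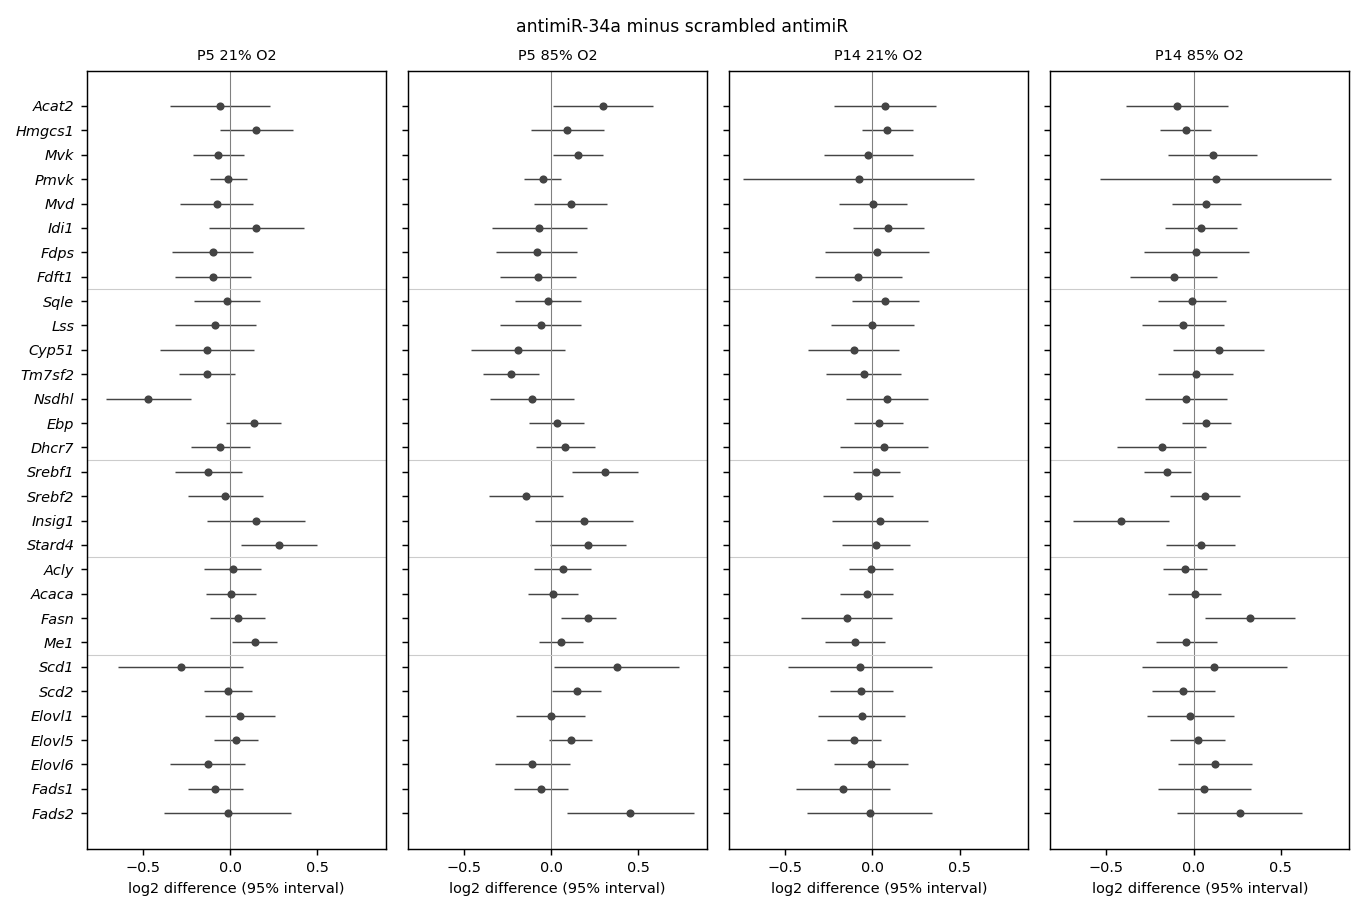
Log2 difference between antimiR-34a and scrambled antimiR mice (horizontal axis) of each of the 30 genes (vertical axis), at P5 and P14 in 21% and 85% O2, 4 mice per group. Points are limma estimates and bars 95% intervals. Most intervals cross 0, and the difference furthest from 0 was that of Nsdhl at P5 in 21% O2, at -0.47.

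Genes of the same pathway outside the 30 were read from a list. Of 12 other sterol genes tested, 7 were higher and 3 lower in 85% O2 at P14 in scrambled mice, with a median of 0.32, against 32.0% and 31.1% of all genes. Mbtps2, a protease that releases SREBP from its membrane, rose by 0.57 (limma) and Ggps1, which makes geranylgeranyl diphosphate, by 0.31. Msmo1 (0.35) and Hsd17b7 (0.36), which act on the same C4-demethylation as Nsdhl, were higher, and Sc5d (-0.24) and Insig2 (-0.20) were lower. At P5 in scrambled mice 4 of these genes were higher and 2 lower, against 21.5% and 24.8% of all genes. The antimiR-34a mice had 8 higher and 1 lower at P14, against 34.3% and 31.6%.

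Of 21 other fatty acid and lipid genes tested, 8 were higher and 5 lower at P14, where 32.0% and 31.1% of all genes were called, and 11 were higher and 3 lower at P5, where 21.5% and 24.8% were. Slc25a1, the mitochondrial citrate carrier, rose at P14 by 0.63, Pgd, which yields NADPH in the pentose phosphate route, by 0.75, and Elovl4 by 1.11. Lower were Thrsp (-3.62), Mlxipl (-1.49), the carbohydrate-responsive factor ChREBP, and Scd3 (-1.01). Of 12 genes of cholesterol efflux and LXR response, 3 were higher and 2 lower at P14, against 32.0% and 31.1% of all genes, with Ch25h, which makes 25-hydroxycholesterol, at 1.46 and Cyp27a1, a sterol hydroxylase, at -1.22. At P5 7 of the 12 were higher and 1 lower in scrambled mice (median 0.32), against 21.5% and 24.8% of all genes, and 6 were higher and 0 lower in antimiR-34a mice, against 21.6% and 26.0%. No gene of these 3 lists was called in an antimiR contrast.

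Markers of other cell types also differed with oxygen at P14 in scrambled mice, where 32.0% of all genes were called higher and 31.1% lower. Of 9 adipocyte genes tested 8 were lower, with a median of -4.45, and the mean level of the list lay at -1.20 to 2.16 in 21% O2 and -5.26 to -4.99 in 85% O2. A probe was tested if bright in at least 1 group, so a dim gene could enter through the group where it was high. Thrsp and Mlxipl are abundant in fat. Of 10 type II pneumocyte genes 3 were higher and 6 lower (median -0.35), with a list level of 5.24 to 5.29 in 21% O2 and 5.01 to 5.18 in 85% O2. Of 8 lung macrophage genes 4 were higher and 4 lower (median -0.79). The macrophage list level was 1.95 to 2.27 in 21% O2 and 0.54 to 1.07 in 85% O2, without overlap. Of 8 lipofibroblast genes 1 was higher and 4 lower (median -0.32). The lipofibroblast list level was 2.49 to 2.69 in 21% O2 and 2.06 to 2.17 in 85% O2. Of 8 skeletal muscle genes 5 were lower (median -0.90) and of 5 hepatocyte genes 4 (median -1.88), with 0 higher in either list. Of 9 proliferation genes 0 were higher and 2 lower at P14, and all 9 were lower at P5, against 24.8% of all genes. The part of these cell types in the values of the 30 genes was not tested. Without replicate 1 of the scrambled room air group, in which the adipocyte level was highest, and 2 room air lungs that stood apart in array brightness, 11 of the 30 genes were higher and 3 lower in scrambled mice at P14. Acaca (0.22), Elovl1 (0.28), Scd2 (0.20), Idi1 (0.25), Pmvk (0.88) and Ebp (0.12) lost their calls then, with fewer lungs in the fit, and Me1 (1.34), Mvd (0.70), Sqle (0.63), Hmgcs1 (0.57), Srebf1 (0.65), Insig1 (0.54) and Stard4 (-1.01) kept theirs.

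Of the tested probes, 4 were annotated to a chromosome name other than that of the gene. The Fdps probe was placed on chromosome 10 of mm9, where RefSeq has Fdps on chromosome 3, the Hmgcs1 probe on an unplaced part of chromosome 13, and 2 of the other Acaca probes (those at 0.30 and 0.50 at P14) on chromosome 12, where Acaca lies on 11. The brightest Fdft1 probe was placed at chr14:19364899-19364958, and the other tested one lay elsewhere on the chromosome and was well above background in only 2 of the 4 scrambled room air lungs at P14, so no difference is given for it. Values of Fdps, Hmgcs1, Fdft1 and Acaca may therefore include related sequences, which was not tested.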

How the data were processed

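Total RNA from 32 lungs was labelled with Cy3 and hybridised by the authors to Agilent SurePrint G3 mouse arrays. The deposited scanner files hold intensities from Feature Extraction 10.7.3.1 (per the labels), with probe positions on mm9. A deposited log2 table of the authors' normalized values served as an alternative. RNA kits are named differently in the labels and the methods, and the anaesthetic differed between ages. The extraction protocol in the labels gives days 5.5 and 14.5 for the P5 and P14 groups.

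Processed intensities were taken as log2, less each array's 75th percentile over the spots that were not controls. Outlier spots (0.211% of spots) were left out after that step. Replicate spots were averaged per probe. Testing was limited to probes that every one of the 4 arrays of some group showed well above background (35984 probes at P5, 38458 at P14, 39163 over both ages). Each age was fitted with its 16 arrays, and contrasts between ages with all 32, in limma 3.58.1 (R 4.3.3), with Benjamini-Hochberg adjustment at 0.05 over all tested probes. Percentages of all genes rest on each gene's brightest tested probe. The fit was tested on simulated data. The number of arrays limits precision. Nothing in the labels names litters, so p-values measure the spread between these mice.

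All 30 genes are named, each on the tested probe of highest mean level, and other genes only from gene lists, some of whose members are not reported here. The members and lists were chosen with earlier results of these data known. Alternatives were background correction, quantile normalization, filters, the authors' values, array weights, smaller fits, the methods' t-test (Welch), the mean over probes, and leaving out arrays. The age and oxygen by age contrasts in antimiR-34a mice and the fit without 9 arrays were added after the data were seen. A slide block could not be fitted, since each slide held 1 age and 1 oxygen level.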

Additional observations from a re-analysis of the deposited data

Results flagged for a closer look

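In the 4 mice of a group, 14 values stood far from the other 3, among 328 groups of 4 that were looked at for the 30 genes and the gene lists, and chance gives about 1 in 20. Among these genes the widest gap was that of Pmvk in replicate 2 of the P14 85% O2 antimiR-34a group, at 5.32 against 3.51 to 3.54. Mvd was at -0.085 in replicate 4 of the P14 85% O2 scrambled group, where the others were at 0.0096 to 0.010, and at -0.42 in replicate 4 of the P5 21% O2 antimiR-34a group, against -0.15 to -0.11. In the P14 21% O2 scrambled group Scd2 was at 5.44 in replicate 4 (others 5.53 to 5.55), Srebf2 at -0.79 in replicate 2 (others -0.71 to -0.70) and Fdps at 2.69 in replicate 3 (others 2.51 to 2.54). In the P5 21% O2 scrambled group Srebf1 was at -1.82 in replicate 1 (others -1.64 to -1.62) and Sqle at 2.41 in replicate 4 (others 2.45 to 2.46). Acaca was at 2.78 in replicate 1 of the P14 21% O2 antimiR-34a group, against 2.67 to 2.68. In several of these, such as Mvd at P14, the other 3 mice lay very close together.

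Among the lists, replicate 4 of the P14 85% O2 antimiR-34a group had adipocyte genes at -1.97 (others -5.37 to -4.97) and hepatocyte genes at -2.68 (others -3.66 to -3.58). Skeletal muscle genes were at -1.45 in replicate 1 of the P14 21% O2 scrambled group (others -2.42 to -2.29). The lung tissue genes were at 5.46 in replicate 2 of the P14 85% O2 antimiR-34a group (others 4.90 to 4.97), the lung with the high Pmvk value, and the other fatty acid and lipid genes at 0.67 in replicate 1 of the P14 21% O2 scrambled group (others 0.32 to 0.37).

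The oxygen difference changed between P5 and P14 in a tested interaction for 13 genes in scrambled mice and 14 in antimiR-34a mice (limma, adjusted p under 0.05), where 43.3% and 44.6% of all genes did, so these counts are near the share over all genes. In scrambled mice the change, P14 minus P5 on the log2 scale, was 0.91 for Insig1, 0.89 for Dhcr7, 0.71 for Mvd, 0.67 for Elovl6, 0.63 for Me1, 0.61 for Srebf1, 0.56 for Acat2, 0.53 for Sqle, 0.52 for Hmgcs1, 0.52 for Fdft1, 0.41 for Fads1, -0.28 for Ebp and -0.46 for Nsdhl. The antimiR-34a mice gave 0.99 for Pmvk, 0.78 for Elovl6, 0.77 for Me1, 0.63 for Cyp51, 0.61 for Fads1, 0.59 for Mvd, 0.50 for Dhcr7, 0.46 for Fdft1, 0.46 for Fasn, 0.45 for Srebf2, 0.45 for Hmgcs1, 0.44 for Sqle, -0.30 for Acly and -0.95 for Nsdhl. The Pmvk value includes the lung at 5.32 and was 0.54 without it (adjusted p = 0.000407, limma). The values of Acly, Nsdhl, Srebf2 and Pmvk depend on the probe, and the other Pmvk probe gave 0.72 (adjusted p = 0.0827).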

How the results depend on the processing

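Counts of the 30 genes called stayed within 1.5 times the reported count in all comparisons and alternatives run, except these. The methods' t-test called 8 genes for oxygen at P5 in scrambled mice in place of 16. For antimiR-34a at P5 in 21% O2, array weights and a fit of the compared groups alone each called 1 gene, Nsdhl, in place of 0. Array weights called 2 genes, Fasn and Srebf1, in place of 0 for the oxygen by antimiR interaction at P14. Without 9 arrays, 9 genes were called in place of 14 for oxygen by age in antimiR-34a mice. Of 2929 values of single called genes under an alternative, 2727 kept direction and call, 196 lost the call and 6 changed sign, all 6 with the mean over a gene's probes. These were Acly for oxygen at P14 in scrambled (0.27) and antimiR-34a mice (0.16), Acly in antimiR-34a mice for oxygen by age (0.15) and age (-0.069), and Srebf2 for oxygen at P14 in scrambled mice (-0.016) and for oxygen by age in antimiR-34a mice (-0.25). Leaving out each lung in turn gave 12 to 15 calls for oxygen at P5 and 16 to 20 at P14 in scrambled mice, 11 to 14 and 18 to 21 in antimiR-34a mice, 12 to 14 and 14 to 16 for oxygen by age, 20 to 21 and 21 to 22 for age, and 0 for the antimiR and its interaction. Under quantile normalization the split for oxygen at P5 in scrambled mice was 5 higher and 8 lower in place of 8 and 8, and for oxygen by age 11 and 4 in place of 11 and 2 in scrambled mice and 13 and 4 in place of 12 and 2 in antimiR-34a mice. The replicate numbers did not pair the mice (correlations of same-numbered deviations over 0.1 in 4 of 24 pairs at P5 and 6 of 24 at P14). With a replicate block, 18 genes were called for oxygen at P5 and 19 at P14 in scrambled mice. The cause of these changes was not tested. The t-test was not run for interactions, which it cannot fit, and a slide block could not be fitted.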
